A study of Drosophila melanogaster with 4 samples.

Results

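The 6 genes described here make up the core of the Drosophila Jun N-terminal kinase (JNK) pathway and its transcription factor AP-1: msn, hep, bsk, kay, Jra and puc. They were found by symbol among 13945 protein-coding genes of the Ensembl BDGP6 annotation, and every peak whose summit lay in the gene body or within 5 kb of it was collected. The peaks come from chromatin immunoprecipitation followed by sequencing (ChIP-seq) of Chinmo, a BTB-domain zinc finger transcription factor best known for setting temporal identity in neurons. Whole Drosophila melanogaster embryos of the chinmo-GFP strain, 6 to 24 h old, expressed chinmo-eGFP fusion proteins and were precipitated with an anti-GFP antibody; 4 libraries, labelled biological replicates 1 to 4, form the only group, with no second condition. The labels' antibody field names Chinmo rather than GFP, their age field holds no usable embryo age, so the age was read from the source label, and the control libraries they mention were not analysed here. In whole embryos, occupancy in a few cells and weaker occupancy in many cells cannot be told apart.

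In the JNK pathway, kinases act in a chain: msn, a Ste20-type kinase, acts upstream of the kinase of JNK, hep, which phosphorylates bsk, the fly JNK. Active bsk phosphorylates Jra, the fly Jun, which pairs with kay, the fly Fos, to form AP-1. The phosphatase puc is transcribed in response to AP-1 and switches bsk off again, and the pathway is known for its role in dorsal closure, when the embryonic epidermis is drawn over the amnioserosa.

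For each library a thresholded list of reproducible peaks and a longer ranked list had been deposited. The thresholded lists held 3435, 4415, 2225 and 3038 peaks in replicates 1 to 4, and the ranked lists held between 27034 and 39725. Peak strength is given below as a rank percentile, the share of peaks in the same thresholded list whose signal value was equal or lower, so that 100 marks the strongest peak of a library. A percentile said to be of the ranked lists is taken over the longer list and cannot be set beside one of the thresholded list. A shared region is a place where thresholded summits, each widened by 100 bp on both sides, joined up in at least 3 of the 4 libraries. There were 2150 shared regions, of which 1167 held a peak in all 4 libraries. The lists carry no read numbers, so the depth of each library is unknown and an unlisted peak is not a measured absence. Replicate 3, with the shortest list, also gave the lowest percentile most often: in 46.3% of the 1167 regions, against 23.1%, 11% and 19.6% for replicates 1, 2 and 4.

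Of the 6 genes, 5 had at least 1 shared region, and they had 15 between them. Across all protein-coding genes 28.5% had at least 1, and across the 1977 genes of at least 10 kb, the length class of msn, hep, puc and kay, 46.3% did. The AP-1 genes held most of the regions, with 5 at kay and 4 at Jra, while msn, hep and puc had 2 each and bsk had none; at least 2 were found at 7.86% of all genes and at 19.4% of those of at least 10 kb. A shared region lay within 1000 bp of a transcription start site (TSS) at 3 genes, hep, kay and Jra, against 12.7% of all genes and 28.2% of those of at least 10 kb. Of the 15 regions, 7 lay in introns, 2 in 5′ untranslated regions (UTRs), 2 upstream and 4 downstream of the gene, and 6 lay within 1000 bp of the TSS of another protein-coding gene. Another 12 places around the 6 genes had a thresholded peak in too few libraries to be shared, 3 of them in 2 libraries and 9 in 1. The outermost region within 5 kb lay 3236 bp beyond Jra, with a mean percentile of 74.9, and the nearest regions outside it lay between 19.1 kb (Jra, 41.4) and 59.3 kb (puc, 67.4) from the gene. The median of the mean percentiles of the 15 was 70.9, against 62.2 over all shared regions.

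**Figure D1:**
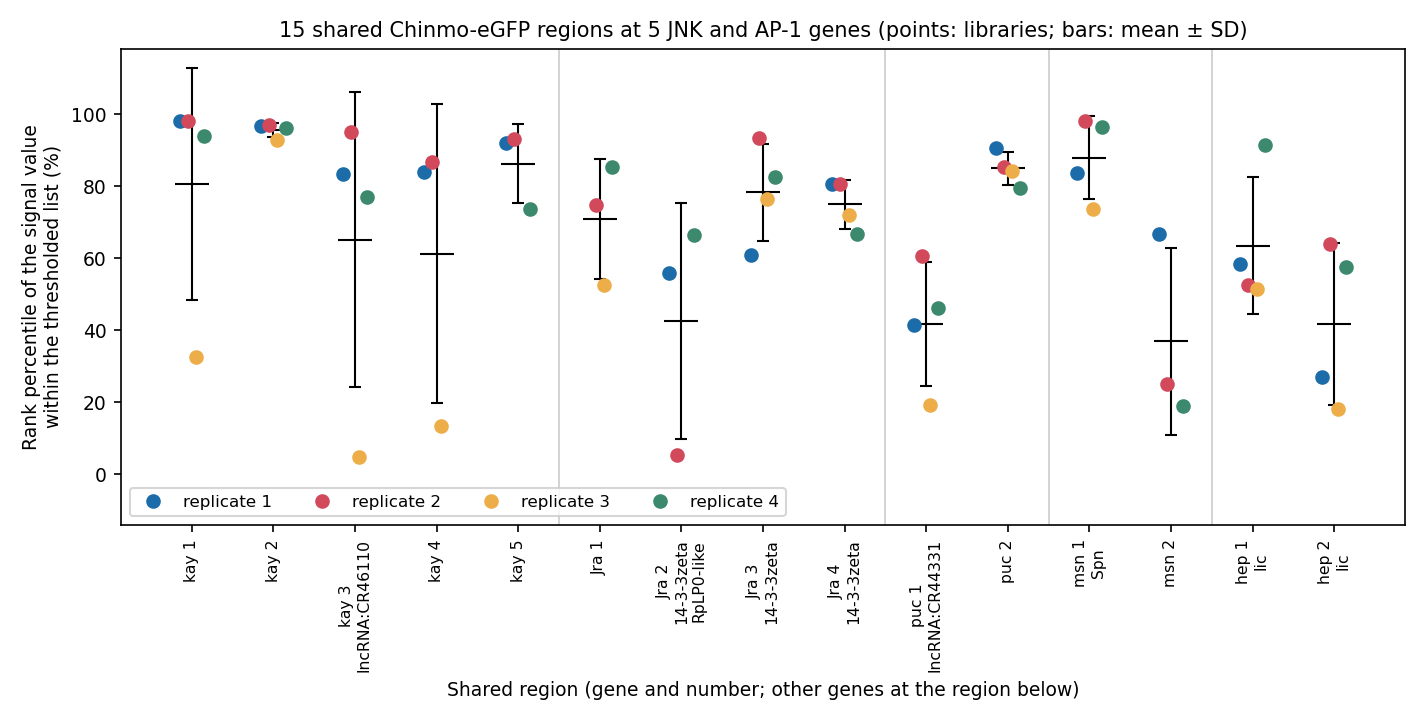
Rank percentile of the signal value (vertical axis, percent) of each of the 15 shared regions at kay, Jra, puc, msn and hep (horizontal axis, with other genes at the region named below). Points are libraries, and bars give the mean ± SD over the libraries with a peak, so an SD bar can pass 100; kay region 2 sits between 92.7 and 96.9 in all 4 libraries, while kay regions 1, 3 and 4 show replicate 3 far below the others.

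The DNA under 6 of these regions is shown to place what follows: the stretches before the TSSs of kay that were occupied, a kay intron rich in GA repeats, the kay and puc introns that hold the AP-1 binding sequence, and the stretch between hep and its neighbour lic. Each is read 5′ to 3′ on the strand of the named gene from the RefSeq Release 6 sequence (dm6), without annotated UTR bases. Capitals mark matches on either strand to the AP-1 binding sequence (TGANTCA), the GAGA factor sequence (GAGAG, or CTCTC on the other strand) and the DNA replication-related element (TATCGATA); overlapping GAGAG matches run together.
kay, before the RA and RG start, chr3R:29772691-29772891, plus strand: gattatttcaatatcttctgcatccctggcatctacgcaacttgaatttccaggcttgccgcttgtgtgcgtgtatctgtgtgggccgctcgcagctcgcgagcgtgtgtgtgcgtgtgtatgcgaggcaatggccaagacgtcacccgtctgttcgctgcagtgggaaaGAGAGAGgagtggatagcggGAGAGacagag
kay, before the RB start, chr3R:29782408-29782608, plus strand: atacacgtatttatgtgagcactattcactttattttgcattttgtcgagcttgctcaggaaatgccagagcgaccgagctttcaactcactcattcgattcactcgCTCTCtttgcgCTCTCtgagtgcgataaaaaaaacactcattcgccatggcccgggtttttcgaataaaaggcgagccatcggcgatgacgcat
kay, intronic region 3, chr3R:29774484-29774684, plus strand: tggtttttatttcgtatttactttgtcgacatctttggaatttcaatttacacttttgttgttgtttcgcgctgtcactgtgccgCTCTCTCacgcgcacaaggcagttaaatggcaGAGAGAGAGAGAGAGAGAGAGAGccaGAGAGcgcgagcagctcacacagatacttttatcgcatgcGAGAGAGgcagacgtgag
kay, intronic region 4, chr3R:29778792-29778992, plus strand: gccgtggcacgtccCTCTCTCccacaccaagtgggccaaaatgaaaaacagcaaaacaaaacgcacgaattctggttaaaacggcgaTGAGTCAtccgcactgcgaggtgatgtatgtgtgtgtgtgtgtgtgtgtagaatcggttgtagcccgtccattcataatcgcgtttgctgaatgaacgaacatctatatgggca
puc, intronic region 2, chr3R:8119854-8120054, plus strand: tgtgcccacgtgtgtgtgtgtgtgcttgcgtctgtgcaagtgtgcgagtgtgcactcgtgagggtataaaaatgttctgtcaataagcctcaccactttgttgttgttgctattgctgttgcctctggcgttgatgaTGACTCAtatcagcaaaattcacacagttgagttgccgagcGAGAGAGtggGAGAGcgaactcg
hep, region 2 between hep and lic, chrX:13090988-13091144, minus strand: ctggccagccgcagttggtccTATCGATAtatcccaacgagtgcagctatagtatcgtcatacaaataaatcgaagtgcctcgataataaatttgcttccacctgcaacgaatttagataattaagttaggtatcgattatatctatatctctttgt
The stretches before the RA and RG start and the RB start of kay end at the base before each start site, the puc and kay intronic stretches span 201 bp around the region centre, and the hep stretch ends towards lic at the base before the lic TSS.

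Among the kinases, msn (FBgn0010909, chr3L:2554847-2586540, minus strand) had its strongest region outside the gene. Region 1 (chr3L:2554151-2554558) lay 495 bp beyond the 3′ end of msn and 60 bp from a TSS of Spn, which encodes the scaffold protein Spinophilin. Its percentiles were 83.6, 98.0, 73.6 and 96.5 in replicates 1 to 4, a mean of 87.9 ± 11.5 (SD, n = 4), with replicates 2 and 4 the higher pair. The 4 summits lay within 38 bp of each other. Region 2 of msn (chr3L:2577024-2577707) lay in an intron, 8929 bp downstream of a TSS. It had percentiles of 66.7, 25.0 and 19.0 in replicates 1, 2 and 4, with a mean of 36.9 ± 26 (SD, n = 3) that fell to 22.0 without replicate 1. Replicate 3 had no thresholded peak there, but its ranked list held 1 at place 3038 with a score of 646, below the lowest thresholded score of 830. Replicate 2 alone had thresholded peaks at 2 more places, an intron 15910 bp downstream of a TSS (percentile 52.2) and Spn (percentile 31.4). Both annotated starts of msn had no shared region and no thresholded peak, though a ranked peak lay within 1000 bp in each library, at percentiles of 88.2, 68.8, 89.1 and 84.0 of the ranked lists. Such a ranked peak is common: 66.8%, 57.9%, 59.6% and 66.1% of all genes had at least 1 in replicates 1 to 4. In the ranked lists, region 2 of msn stood at percentiles of 96.8, 86.4, 89.9 and 91.5.

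The JNK kinase gene hep (FBgn0010303, chrX:13079205-13090434, minus strand) shared both of its regions with the divergent gene lic, which encodes the kinase that acts on p38. Region 1 (chrX:13090251-13090680) was centred 32 bp upstream of the single hep TSS and 679 bp from the TSS of lic. Its percentiles were 58.3, 52.5, 51.3 and 91.5, so that replicate 4 stood above the other three, and the mean was 63.4 ± 19.0 (SD, n = 4). Region 2 (chrX:13090873-13091302) was centred 57 bp from the TSS of lic and 654 bp upstream of hep. It had percentiles of 27.1, 63.9, 18.2 and 57.5, with a mean of 41.7 ± 22.4 (SD, n = 4), and its summits fell within 4 bp of each other, the tightest of the 15 regions. The peaks cannot be assigned to hep rather than lic by position. An intronic place 2862 bp inside hep was called in replicates 1 and 2 only, and a place at CG2200, 3851 bp upstream, in replicates 1 and 3 only. Without replicate 4, when 2 of the 3 remaining libraries sufficed, both were counted and hep had 4 regions.

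No shared region was found at bsk (FBgn0000229, chr2L:10247502-10250501, minus strand), the JNK gene itself. The nearest one lay 46.5 kb beyond the gene, near Ripalpha and RpL7. A peak 2591 bp downstream of a bsk TSS, at the insulin receptor substrate gene chico, was thresholded in replicates 2 and 4, at places 3799 and 2527 and percentiles of 14.0 and 16.9. It was the only thresholded peak around bsk in any library, and it counted as shared when replicate 1 or replicate 3 was left out or when 2 of the 4 libraries sufficed. The conservative and the longest list deposited for the whole series each held 2 regions around bsk, though which libraries those lists compare is not stated. The ranked lists held 8, 2, 1 and 3 peaks around bsk in replicates 1 to 4, or 6.15, 1.54, 0.769 and 2.31 per 10 kb, against medians over all genes of 3.76, 2.49, 2.72 and 3.47. Replicate 1 thus lay above the median of all genes and the other libraries below it.

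**Figure D2:**
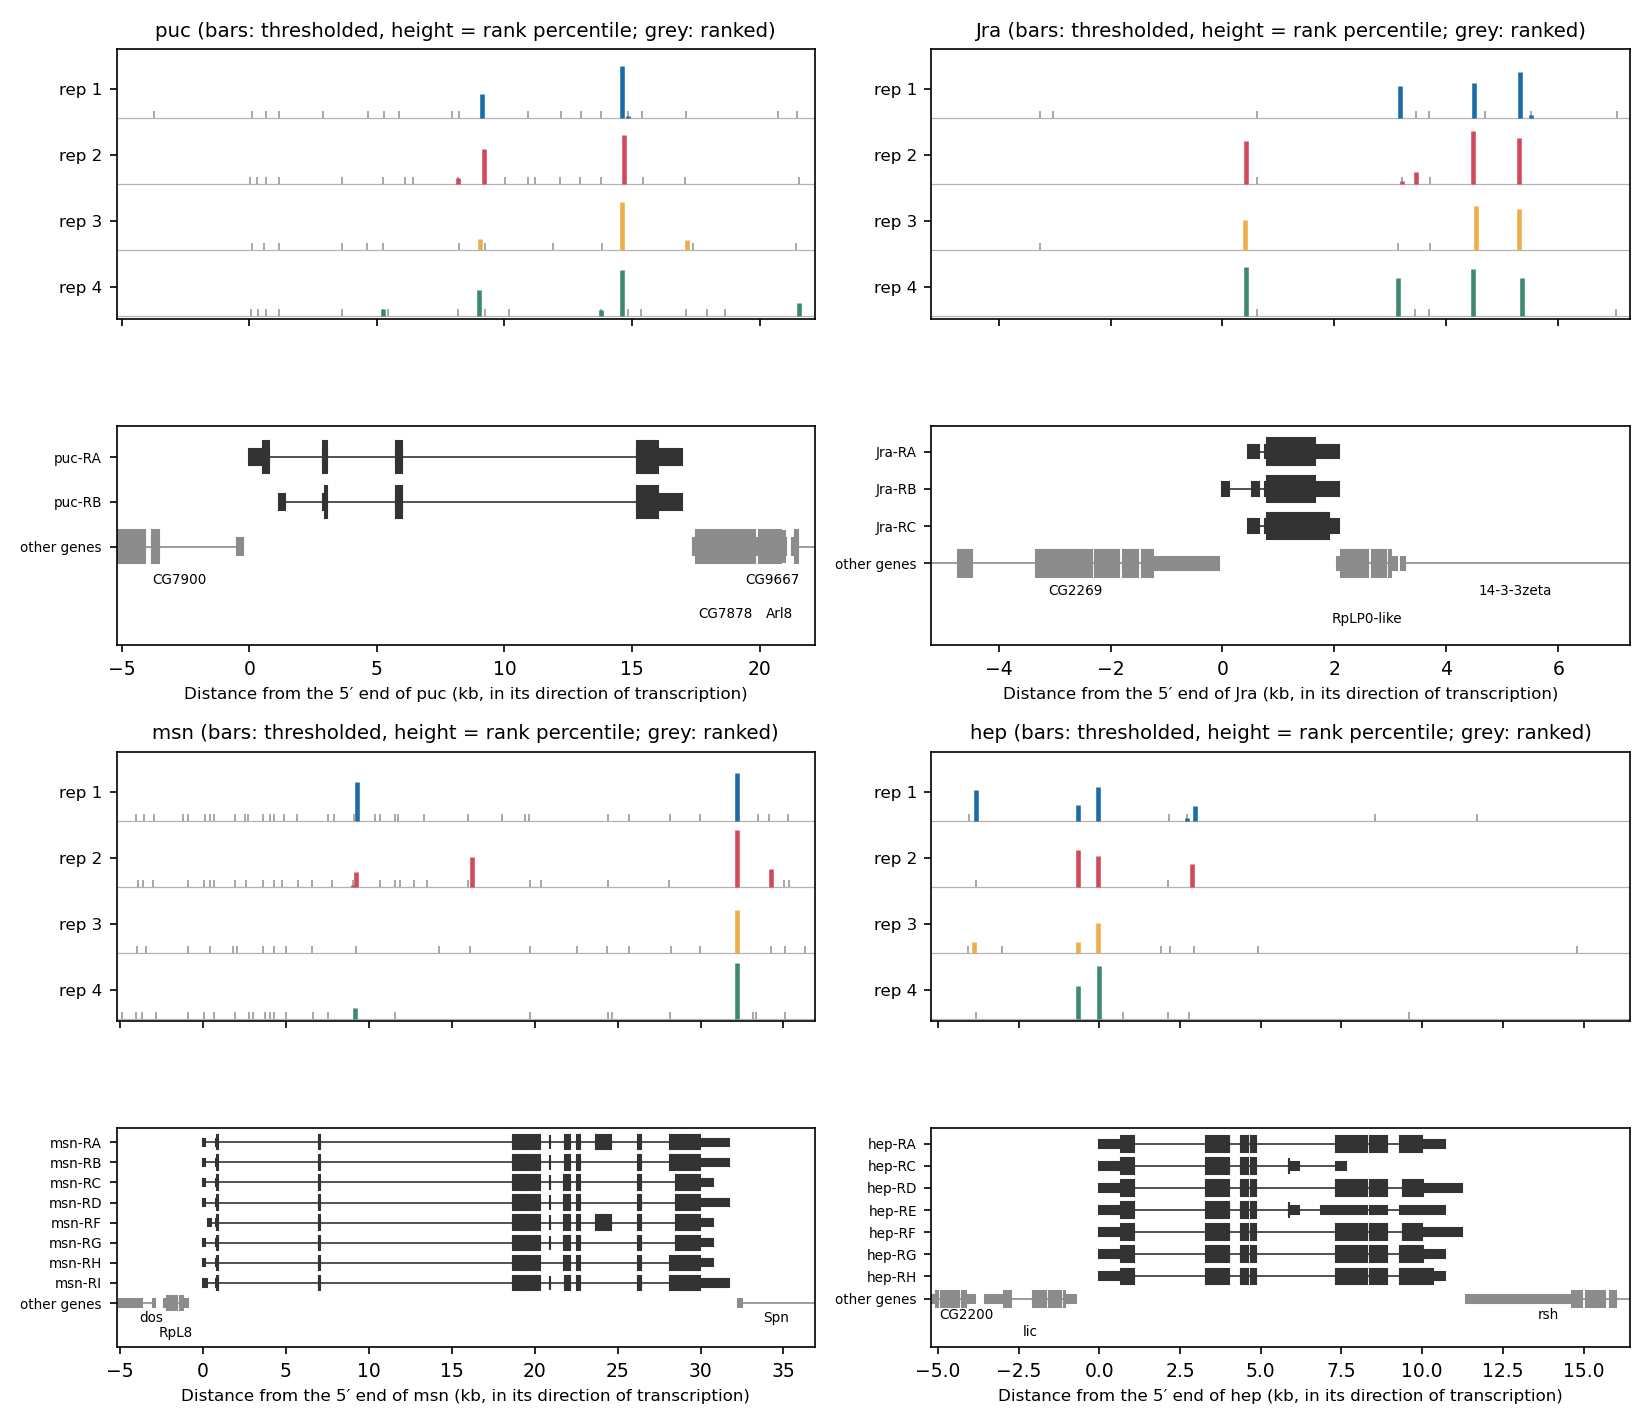
Peaks by library at puc, Jra, msn and hep against distance from the 5′ end of the gene (kb, in its direction of transcription). Coloured bars are thresholded peaks with height equal to the rank percentile (0 to 100), grey ticks are ranked peaks, and the boxes below are exons (tall where coding) of each transcript and of other protein-coding genes; at puc the bar near 15 kb appears in all 4 libraries between 79.6 and 90.6, and at Jra 3 of 4 regions lie in 14-3-3zeta or at its start.

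The Fos gene kay (FBgn0001297, chr3R:29765995-29794113, plus strand) had the most regions of the 6 genes, all of them inside its 28.1 kb body. It had 5 shared regions; 43 genes in all (0.308%) had 5 or more, as did 2.02% of the genes of at least 10 kb and 4.62% of the 714 genes at least as long as kay. Thresholded peaks numbered 5, 6, 6 and 5 in replicates 1 to 4. The 5 transcripts of kay start from 4 sites, and 3 of the 5 regions lay within 1000 bp of the start shared by RA and RG or of the RB start. The other two, regions 3 and 4, were intronic and farther from any start.

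Region 2 of kay (chr3R:29772688-29773187) was centred in the 5′ UTR, 68 bp inside the RA and RG start, and was the strongest region at any of the 6 genes. Its percentiles were 96.7, 96.9, 92.7 and 96.0, at places 114, 139, 164 and 124 of the 4 lists. The mean of 95.6 ± 1.96 (SD, n = 4) took place 100 among the 2150 shared regions. Region 1 (chr3R:29771608-29772219) lay 917 bp upstream of the same start, with percentiles of 98.2, 98.2, 32.4 and 93.8. Replicates 1, 2 and 4 thus ranked it among their highest peaks and replicate 3 did not, and the mean of 80.6 ± 32.2 (SD, n = 4) became 96.7 without replicate 3. The summit in replicate 3 lay at 29771806, and those of the other libraries lay between 29771930 and 29772025. Replicate 3 also had a ranked peak 6021 bp from the 5′ end of kay, at percentile 75 of its ranked list. The summits of replicates 1 and 2 lay at 6025 and 6030 bp. Within the ranked lists, region 1 stood at percentiles of 99.8, 99.6, 94.4 and 99.4 in replicates 1 to 4.

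Replicate 3 was also the lowest library in the intronic regions of kay. Region 3 (chr3R:29774301-29775004) was centred 1692 bp downstream of the RA and RG start, within the non-coding gene lncRNA:CR46110. Its percentiles were 83.4, 95, 4.81 and 77.1, with a mean of 65.1 ± 40.9 (SD, n = 4) and of 85.2 without replicate 3. Region 4 (chr3R:29778645-29779115) lay 3717 bp upstream of the RB start and had percentiles of 83.8, 86.6 and 13.3 in replicates 1 to 3. Replicate 4 had no thresholded peak at region 4; its ranked list held 1 at place 1363 with a score of 89, so the signal value was high while the score was low. The mean of region 4 was 61.2 ± 41.5 (SD, n = 3), or 85.2 without replicate 3. Percentiles of the ranked lists were 98.4, 99.1, 88.3 and 97.8 at region 3 in replicates 1 to 4. At region 4 they were 98.5, 97.6, 92.2 and 96. Over the 1167 regions with a peak in every library, replicate 3 lay at least 50 points below each of the others in 25, or 2.14%, and kay regions 1 and 3 are among them. What sets replicate 3 apart there was not tested.

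At the RB start, region 5 of kay (chr3R:29782229-29782829) was centred 9 bp inside the 5′ UTR. Replicates 1, 2 and 4 gave percentiles of 92.0, 93.1 and 73.5, a mean of 86.2 ± 11 (SD, n = 3), and replicate 3 had a ranked peak at place 3969 with a score of 685. The RD start, at the 5′ end of the gene, and the RF start had no thresholded peak in any library. Their best ranked peaks within 1000 bp lay at percentiles of 28.3, 19.3, 81.9 and 76.8 of the ranked lists for RD. For RF they lay at 34.3, 58.1, 77.1 and 83.6. The peaks of a start did not all lie at the same place. Those of RD lay 500 bp upstream in replicate 1 and 233, 200 and 92 bp downstream in replicates 2 to 4. Those of RF lay 94, 658, 66 and 658 bp upstream in replicates 1 to 4. Along the gene, the 2 starts with a shared region lay between the 2 without.

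**Figure D3:**
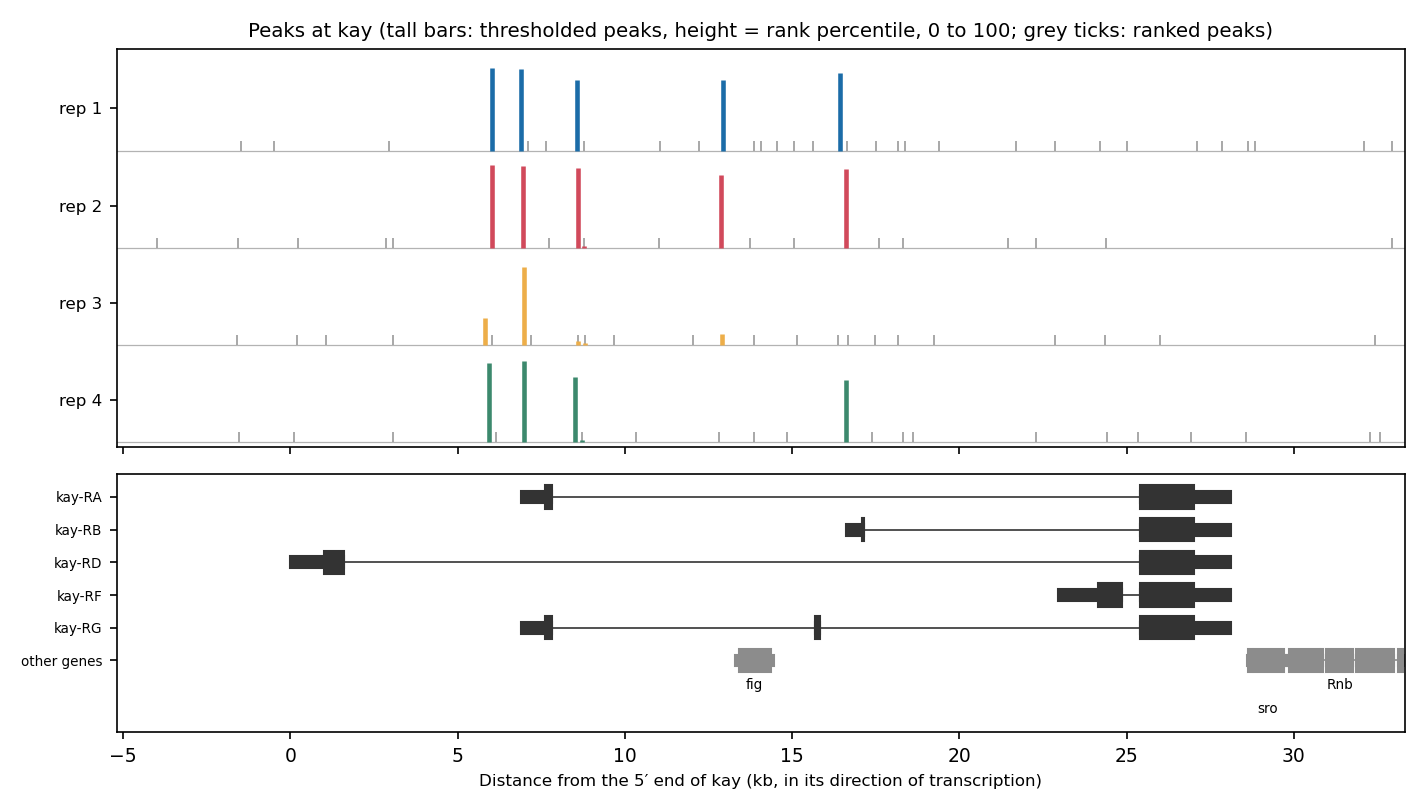
Peaks by library along kay against distance from its 5′ end (kb). Coloured bars are thresholded peaks with height equal to the rank percentile (0 to 100), grey ticks are ranked peaks, and the transcripts and other protein-coding genes are drawn below; regions 1 and 2 stand at the RA and RG start and region 5 at the RB start, and the RD and RF starts have ranked peaks alone.

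The Jun gene Jra (FBgn0001291, chr2R:10096480-10098556, plus strand) is short, at 2.08 kb, and 1 of its 4 regions lay at the gene itself. Region 1 (chr2R:10096681-10097110) was centred 32 bp upstream of the start shared by RA and RC. Replicates 2, 3 and 4 gave percentiles of 74.8, 52.6 and 85.2, with a mean of 70.9 ± 16.7 (SD, n = 3), and their summits lay within 16 bp. Replicate 1 had no thresholded peak there, but a ranked peak at place 2121, 164 bp downstream of the start, with a score of 497. The other 3 regions lay downstream of Jra, in or at 14-3-3zeta, which encodes a phosphoserine-binding adaptor of Ras and Raf signalling. Region 2 (chr2R:10099403-10099905), 23 bp from a 14-3-3zeta TSS and 64 bp from that of RpLP0-like, had percentiles of 55.8, 5.32 and 66.5 in replicates 1, 2 and 4 and a mean of 42.5 ± 32.7 (SD, n = 3). Region 3 (chr2R:10100733-10101198) had percentiles of 60.9, 93.3, 76.5 and 82.4, a mean of 78.3 ± 13.5 (SD, n = 4). Region 4 (chr2R:10101568-10102190) had percentiles of 80.6, 80.6, 71.9 and 66.7, a mean of 74.9 ± 6.83 (SD, n = 4). With the window narrowed to 1000 bp around the gene body, Jra kept region 1 alone. Of all genes, 0.595% had at least 4 shared regions within the wider window.

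The phosphatase gene puc (FBgn0243512, chr3R:8105332-8122294, plus strand), the standard reporter of JNK activity, had both regions deep in its last intron and none at its starts. Region 2 (chr3R:8119715-8120352) was centred 13466 bp downstream of the RB start. Its percentiles were 90.6, 85.3, 84.3 and 79.6, at places 325, 650, 350 and 621 of the 4 lists, and the mean was 84.9 ± 4.5 (SD, n = 4). All 4 libraries ranked it in the upper part of their lists, with summits spread over 228 bp. Region 1 (chr3R:8114142-8114737) lay 7936 bp downstream of the RB start and 421 bp from the TSS of lncRNA:CR44331. It was weaker, with percentiles of 41.4, 60.6, 19.1 and 46.1 and a mean of 41.8 ± 17.2 (SD, n = 4), and replicate 3 was again the lowest.

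At the starts of puc every library had a ranked peak but none a thresholded one. A ranked peak within 1000 bp of a TSS was found at 66.8%, 57.9%, 59.6% and 66.1% of all genes in replicates 1 to 4. At the RB start the ranked peaks lay within 26 bp of the TSS, at percentiles of 86.5, 85.2, 89.2 and 92.0 of the ranked lists, with scores of 497, 986, 164 and 565. In the same lists, region 1 of puc stood at percentiles of 94.3, 93.1, 92.9 and 94.7. Within 1000 bp of the RA start, the best ranked peaks stood at percentiles of 89.6, 85.3, 81.6 and 90.4. Their scores were 895, 846, 63 and 617. Those of replicates 1 to 3 lay 94, 47 and 93 bp downstream of the start. That of replicate 4 lay 660 bp downstream, and the peak of that library 80 bp downstream stood at 68.9. The scores of the RB peak in replicate 2 and of the RA peaks in replicates 1 and 2 were above 830, yet these peaks were not in the thresholded lists, and the labels give no reason. In addition, 5 places around puc were thresholded in 1 library each. Of these, 3 were in replicate 4 (8110570, 8119118 and 8126873 on chr3R), 1 was in replicate 2 at lncRNA:CR44331 and 1 was in replicate 3 at CG7878; the place at 8126873 lay at Arl8 and CG9667.

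Ordered by the mean percentile of the strongest region, the genes ran kay (95.6), msn (87.9), puc (84.9), Jra (78.3) and hep (63.4). Each strongest region was picked by these same percentiles, from 5 regions at kay, 4 at Jra and 2 each at msn, puc and hep. How far the number of regions shaped the order and the differences was not tested. All 10 pairs were compared within libraries with a two-sided exact permutation test that flips the sign of the paired differences; 4 libraries allow 16 sign patterns, so the smallest p this design can give is that of 2 patterns in 16. In 4 pairs every library had the same direction and the exact test gave that smallest p (adjusted over the 10 pairs, 0.312), so no pair can be called different at this number of libraries. The differences in these pairs were 10.6 ± 4.43 points for kay over puc, 17.3 ± 13.5 for kay over Jra, 32.2 ± 18.6 for kay over hep and 24.6 ± 16.6 for msn over hep (SD of the difference, n = 4). Neighbours in the order did not differ beyond their spread. The difference was 7.62 ± 10.1 points for kay over msn (exact test, p = 0.5), 2.99 ± 13.9 for msn over puc (p = 0.75), 6.65 ± 16.7 for puc over Jra (p = 0.75) and 14.9 ± 22.4 for Jra over hep (p = 0.375), in exact permutation tests with n = 4. Leaving out 1 library moved several of these differences by over 1.5 times. That of kay over msn fell to 3.79 without replicate 3, and that of kay over Jra to 11.1 without replicate 1. That of Jra over hep was 6.28 without replicate 2 and 22.9 without replicate 4. The difference of msn over puc lay between -1.66 (without replicate 4) and 7.57 (without replicate 3), with -0.239 without replicate 2 and 6.30 without replicate 1. That of puc over Jra lay between -1.02 (without replicate 1) and 11.5 (without replicate 2). The place of msn rests on a region at Spn, as its other region had a mean of 36.9. The strongest region of Jra lay at 14-3-3zeta, but region 1 at its own start, at 70.9 (n = 3), would give Jra the same place.

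The shared regions whose percentiles over the 4 libraries came closest to those of each strongest region were picked by Euclidean distance in percentile points. For kay region 2 they lay at CG10365 (1.04 points) and at CrebB (1.34 points), a bZIP factor gene. The regions nearest to puc region 2 lay at stas (0.362 points) and HmgZ (4.25 points). For Jra region 3 they lay at the ecdysone-induced ETS factor gene Eip74EF (3.43 points) and at Gga (4.91 points). For msn region 1 they lay at CG8306 (7.53 points) and aux (8.61 points), and for hep region 1 at Ptip (12.5 points) and PGAP5 (14.4 points).

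Sequence features were counted in 201 bp around each region centre, on both strands. The AP-1 binding sequence TGANTCA was present in 3 of the 15 regions (20%, exact 95% interval 4.33 to 48.1), and in 4.19% of all 2150 shared regions; regions of the same gene are not independent. The 3 were puc region 2 (chr3R:8119991-8119997, 40 bp from the centre), kay region 4 (chr3R:29778879-29778885, 10 bp from the centre) and region 1 at the Jra start (chr2R:10096857-10096863, 36 bp from the centre). Each AP-1 subunit gene and puc thus had 1 region with a match, and msn and hep had none. In the sequences printed above it reads TGACTCA in puc and TGAGTCA in kay, which are the same site read on opposite strands. With 50 bp on each side the share stayed at 20%, against 2.19% of all regions.

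GAGAG was present in 9 of the 15 regions (60%, exact 95% interval 32.3 to 83.7) and in 44.4% of all regions. It was found in all 5 regions of kay, in 2 of 4 at Jra, and in 1 of 2 at both puc and hep, and in neither at msn. Region 3 of kay had 15 matches and an uninterrupted GA repeat of 24 bp, visible in its sequence above. Only 13.3% of the regions kept a match within 50 bp of the centre, against 26% of all regions, so that in 7 of the 9 regions every match lay farther out. The DNA replication-related element TATCGATA was present in hep region 2 and Jra region 1 (13.3%, against 10.9% of all regions). Neither TGACGTCA, the cAMP response element, nor TTCNNNGAA, the STAT site, was found in these windows; they were present in 0.605% and 3.12% of all regions. GC content ran from 35.8% in Jra region 1 to 58.2% in Jra region 3, against a median of 47.3% over all regions.

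Around the 6 genes, other parts of the pathway were read from 4 lists. Among 28 receptors, adaptors and kinases upstream of JNK, 12 had a shared region (42.9%, against 28.5% of all genes) and 9 had one at a TSS (32.1%, against 12.7%). The median length of the listed genes was 6.08 kb, against 2.17 kb over all genes, and 46.3% of the genes of at least 10 kb had a shared region. Tab2, which links Tak1 to its activators, had a strongest region at a mean percentile of 94.1 ± 1.38, Traf4 had one at 92.5 ± 3.04, and imd, of the immune deficiency pathway, had one at 82.1 ± 9.39 that also lay at Dp1 (SD, n = 4 each). The kinase gene Ask1 followed at 77.9 ± 15.2, in a region at CG4733. The TNF ligand gene egr, the small GTPase gene Cdc42 and the deubiquitinase gene CYLD had none. Of 9 other MAP kinases and their kinases, with a median length of 2.84 kb, 4 had a region (44.4%, against 28.5% of all genes) and 2 had one at a TSS (22.2%, against 12.7%). They were Raf, with 6 regions and a strongest one at 86.2 ± 11.9, lic with those it shares with hep, and p38a and p38c, which share 1 region at 49.1 ± 27.4 (n = 3). The kinase genes Dsor1, Erk7 and nmo had none.

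Of 26 JNK targets and dorsal closure genes, 16 had a shared region (61.5%, against 28.5% of all genes) and 12 had one at a TSS (46.2%, against 12.7%). These genes are also long, with a median of 15.3 kb against 2.17 kb over all genes, and among the genes of at least 10 kb the shares were 46.3% and 28.2%. The strongest were at raw, a negative regulator of JNK in dorsal closure (98.6 ± 0.545, above any region of the 6 genes), at mys, which encodes the βPS integrin (95.5 ± 0.319, in a region at fs(1)h), at the matrix metalloproteinase gene Mmp1 (91.4 ± 3.28, also at CG33228, CG4806 and Pof) and at the LIM-homeodomain gene tup (86.2 ± 5.08). The JNK-responsive genes Ets21C, Gadd45 and Ilp8 had none. Among 18 bZIP factors other than kay and Jra, with a median length of 3.14 kb, 9 had a region (50%, against 28.5% of all genes) and 7 had one at a TSS (38.9%, against 12.7%). CrebB (97.3 ± 0.39), Pdp1 (96.8 ± 1.71, with 7 regions), Atf3 (89.0 ± 4.53) and cnc, the fly Nrf2 (85.7 ± 9.86), had the strongest, while Atf-2, Atf6 and CG7786 had none. All symbols in the 4 lists matched the annotation.

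**Figure D4:**
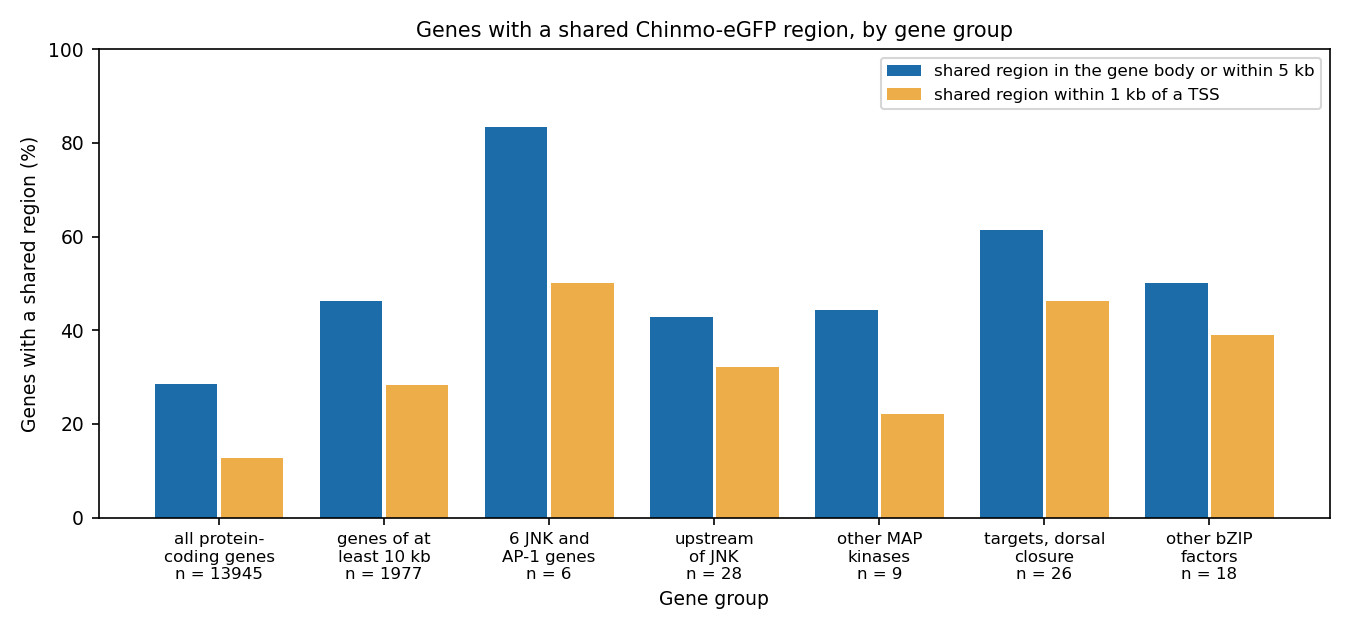
Share of genes (vertical axis, percent) with a shared region in the gene body or within 5 kb (blue) or within 1 kb of a TSS (orange), for all protein-coding genes, genes of at least 10 kb, the 6 JNK and AP-1 genes and the 4 lists (horizontal axis, n below each). All genes stand at 28.5% and 12.7%, and the list of JNK targets and dorsal closure genes stands highest of the 4 lists at 61.5% and 46.2%.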

How the data were processed

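For each of the 4 libraries the authors deposited a thresholded and a ranked list of peaks from an irreproducible discovery rate (IDR) analysis, on dm6 per the labels; neither an aligner nor a peak caller is named (not given in the sources used here). The signal value of each deposited peak is the peak's own, has no stated unit and was used only for ranks within a list. The deposited score, at least 830 in every thresholded list, and a deposited q column, also treated as a score, served as alternatives. Summits on the 6 chromosome arms were widened by 100 bp on each side, joined where they overlapped, and kept as shared regions if at least 3 of 4 libraries had a peak; the strongest peak of a library stood for it, and the centre is the median summit. Genes and TSSs came from Ensembl release 115 (BDGP6.54), and sequence came from RefSeq Release 6, whose arm lengths fit both. With 1 group, genes were described by counts, and pairs by exact permutation tests with Benjamini-Hochberg adjustment. The joining of summits and the count of regions in a gene window were tested on simulated peaks, and the other steps were not. All steps used Python 3.11.15, pandas 2.3.3, numpy 2.4.6, scipy 1.17.1 and matplotlib 3.10.9. Named besides the 6 genes were every gene at one of their regions, up to 4 highest and 3 alphabetically first unoccupied genes of each list, and the 2 likest regions. The members and lists were chosen with earlier results of these data known. Alternatives changed the libraries required, the joining window, the gene and TSS windows, the peak list, the ranking column, the motif window and the libraries used. Nothing in the labels beyond the word biological says how the replicates were raised, so tests measure the spread between these libraries. Intervals cover counting error only.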

Additional observations from a re-analysis of the deposited data

Results flagged for a closer look

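Among 22 sets of 4 library values at these genes, 2 held a library set far apart from the others. The rule flags about 1 in 20 sets by chance where values are continuous and normally spread. Rank percentiles and small counts are neither, so that rate does not apply to them. At kay region 1, upstream of the RA and RG start, the percentile in replicate 3 was 32.4, while the other libraries lay between 93.8 and 98.2. At puc, replicate 4 had 5 thresholded peaks and each other library had 3. With the other counts tied, any different count in replicate 4 would have been flagged.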

How the results depend on the processing

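Of the alternative values computed, 3 changed sign and 40 were counted as moved. The other 191 were not, but they include sizeable changes. Requiring all 4 libraries, or a percentile over 50, gave 10 shared regions instead of 15. The difference of Jra over hep fell from 14.9 to 6.28 points without replicate 2. That of kay over msn fell from 7.62 to 3.79 without replicate 3. The share of regions with TTCNNNGAA rose from 0 to 13.3% with 250 bp on each side. Over all shared regions it rose from 3.12% to 11%. The 15 shared regions became 9 in the gene bodies alone, 23 in the series' conservative list, 54 in its longest list and, in an alternative chosen after seeing the data, 9 without regions at the TSS of another coding gene. Leaving out each library in turn, with 2 of the 3 remaining libraries then sufficing, gave 16 to 17 regions at 5 to 6 genes. This looser requirement can itself add regions. The gene bsk was added without replicate 1 or 3, and whichever library was left out, 3 genes had a region at a TSS. That number was 2 with all 4 libraries required and 4 in the longest list. The 12 genes upstream of JNK with a region became 7 in the upper part of each list (percentile over 50) and 19 in the conservative list. The 16 targets and dorsal closure genes became 10 with all 4 libraries required and 10 in the upper part. The 4 other MAP kinase genes became 7 with 2 libraries required, and 2 both with all 4 required and in the upper part. The share over all genes was computed at the main settings alone (28.5%). Whether all genes changed alike in these alternatives was therefore not tested. Ranked by the q column, the strongest regions of kay, msn, Jra, puc and hep stood at 100, 93.1, 92.0, 81 and 59.4. Jra thus stood above puc, unlike in the order by signal value. Ranked by the deposited score, those of kay, msn, puc, Jra and hep all stood at 100, where scores are tied. The difference of msn over puc ran from -1.66 to 7.57 points, with -0.239 without replicate 2, and that of puc over Jra from -1.02 to 11.5. GAGAG was present in 13.3% of regions with 50 bp on each side, against 26% of all shared regions. The causes of these changes were not tested beyond what each setting removes or adds. Ranking by the p column was not run, since it holds no values to rank. No paired analysis was possible because there is 1 group, so no groups could be paired; genes were compared within libraries. Peak lists carry no read counts, so depth limits which weaker peaks were listed to an unknown degree.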
